A study of Mus musculus with 2 samples.

Results

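The collagen chain genes of the mouse embryo were described in 2 single-cell RNA libraries, 1 from wild-type (WT) embryos and 1 from embryos in which Prdm6 was deleted in the Wnt1 lineage (KO). Members were all genes of both tables whose symbol had the form of a collagen alpha chain (Col, a type number, a and a chain number), which gave 38 of the 18131 genes. The WT embryos were Prdm6+/+; Wnt1-Cre2; ZsGreen1 and the KO embryos Prdm6f/f; Wnt1-Cre2; ZsGreen1, both C57BL/6 at E9.5, so both carried the Cre transgene and the ZsGreen1 reporter. Prdm6 encodes a PRDM family histone methyltransferase, and the comparison asks how its loss in the neural crest altered transcripts. Tissue between the level of the otic placode and the first somites was dissociated without sorting and profiled with 10x Genomics 3′ chemistry, in which each molecule is counted once as a unique molecular identifier (UMI). Wnt1-Cre2 drives Cre in the dorsal neural tube and the neural crest that leaves it, so endothelium, blood and most mesoderm of the KO embryos lie outside the lineage in which the gene was removed. Neural crest also adds cells to the heart, and cardiac cells of that origin were not set apart here. Embryos were pooled and the cells were not assigned to embryos here, which left 1 library per genotype. No test of WT against KO was therefore possible, and the 95% intervals given below cover counting error only.

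Collagens are secreted as trimers of alpha chains wound into a triple helix. Fibrillar chains (types I, II, III, V, XI, XXIV and XXVII) form the fibrils of mesenchyme and cartilage, while type IV chains form the sheet of the basement membrane under epithelia, around muscle and below endothelium. Other chains decorate fibrils, anchor cells or stay in the plasma membrane, and type XVIII collagen is a basement membrane proteoglycan whose cleaved end is endostatin. In the early heart and pharyngeal region, endothelium and epithelia are known to lay down type IV collagen, and mesenchyme begins to make type I and III collagen before cartilage or bone is present.

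The WT library held 11958 cells and 20781384 UMIs, with a median of 1597 UMIs per cell, and the KO library 9765 cells and 18936857 UMIs, with a median of 1703. Levels are given as counts per 1000000 UMIs of the same cells (CPM); since a transcript gives 1 tag whatever its length, they were not divided by length. Cells were put into 10 gated types when at least 3 markers of a type were detected, and the held-out markers of each type were higher in its gate than in the rest of the cells in both libraries. The gates held 1611 WT and 1400 KO cardiac muscle cells, 464 and 360 endothelial, 441 and 186 erythroid, 167 and 135 migrating neural crest, 61 and 58 dorsal neural tube, 434 and 356 neural tube progenitor, 66 and 73 floor plate, 78 and 78 neuron, 168 and 73 splanchnic mesoderm and 96 and 71 head mesenchyme cells. Cells outside the gates with at least 2 of 7 mesenchyme or of 4 epithelial markers made up 2 broader sets, chosen after seeing the data. The label of both libraries was cardiac neural crest, yet the neural crest gate took few cells of either. For Prdm6 itself the WT library held 104 UMIs (5.00 CPM) and the KO library 59 (3.12 CPM), with 0 and 2 in the migrating neural crest gate; the tags lie at the 3′ end and the deleted exons are not given in the sources used here, so this count does not check the genotype. The 2 libraries shared 26 cell barcodes, and doublets were not called here. Primitive red cells, which should lack collagens, served as a measure of free RNA: the 38 chains summed to 433 CPM in WT and 364 in KO erythroid cells.

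Collagen transcripts made up 2047 CPM of the WT library (42532 UMIs) and 1677 of the KO library (31765 UMIs). Col4a1, a type IV chain (chromosome 8, 11198423 to 11312826, minus strand, mm10), led in both, with 546 CPM in WT (536 to 556) and 458 in KO (448 to 468), or 26.7% and 27.3% of all collagen UMIs. The next 6 were Col18a1 at 263 and 213 CPM, Col3a1 at 196 and 149, Col2a1 at 187 and 184, Col4a2 at 186 and 158, Col1a1 at 142 and 79.7, and Col1a2 at 141 and 105. A further 8 chains passed 1000 UMIs over both libraries and lay between 22.8 and 51.9 CPM, and these were Col5a1, Col4a5, Col11a1, Col26a1, Col23a1, Col5a2, Col9a1 and Col27a1. Another 16 had at least 50 UMIs. The last 7, Col8a2, Col8a1, Col24a1, Col5a3, Col17a1, Col20a1 and Col4a3, had fewer than 50 and were too sparse to compare. Col6a4, Col6a5, Col6a6, Col10a1, Col19a1 and Col28a1 were not analysed here.

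**Figure D1:**
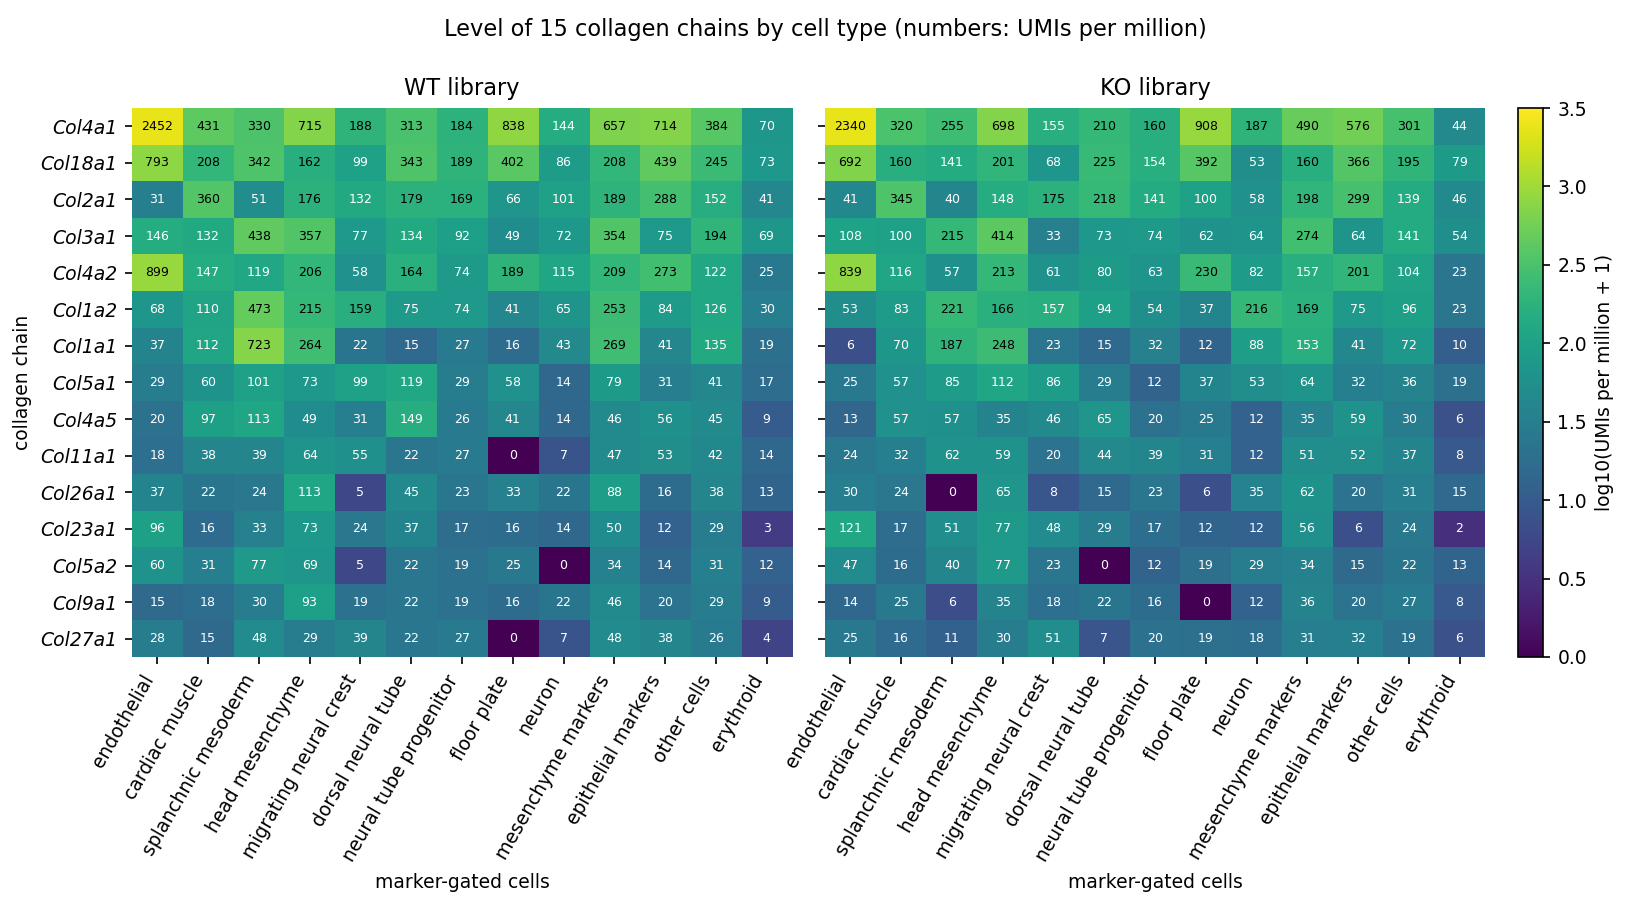
CPM of the 15 chains with at least 1000 UMIs (rows) in each gated type (columns), WT and KO side by side, coloured on a log10 scale of the level plus 1 with the level printed in each cell. Col4a1, Col4a2 and Col18a1 peak in endothelium, Col2a1 in cardiac muscle, and Col1a1, Col1a2 and Col3a1 in splanchnic mesoderm or head mesenchyme. For Col1a2, KO neurons lie close to KO splanchnic mesoderm.

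The type IV chains are the collagen of basement membranes, and Col4a1 and Col4a2 form the trimer present in nearly all of them. Their genes stand head to head on chromosome 8. In the RefSeq annotation (GRCm38.p6) the start sites are 21 bases apart, and the windows from 250 bases before to 50 after each start share 78 bases, chr8:11312777-11312854. Both windows are shown because the levels of the pair are compared below. Each is written 5′ to 3′ along its own gene, with the shared bases in capitals (Col4a1, chr8:11312777-11313076, minus strand, and Col4a2, chr8:11312555-11312854, plus strand).
Col4a1: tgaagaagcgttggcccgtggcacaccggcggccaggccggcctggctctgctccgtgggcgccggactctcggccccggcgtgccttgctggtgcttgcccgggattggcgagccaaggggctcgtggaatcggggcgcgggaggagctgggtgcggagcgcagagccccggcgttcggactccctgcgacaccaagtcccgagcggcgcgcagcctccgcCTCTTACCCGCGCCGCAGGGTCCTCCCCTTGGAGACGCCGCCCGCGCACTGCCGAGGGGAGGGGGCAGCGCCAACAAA
Col4a2: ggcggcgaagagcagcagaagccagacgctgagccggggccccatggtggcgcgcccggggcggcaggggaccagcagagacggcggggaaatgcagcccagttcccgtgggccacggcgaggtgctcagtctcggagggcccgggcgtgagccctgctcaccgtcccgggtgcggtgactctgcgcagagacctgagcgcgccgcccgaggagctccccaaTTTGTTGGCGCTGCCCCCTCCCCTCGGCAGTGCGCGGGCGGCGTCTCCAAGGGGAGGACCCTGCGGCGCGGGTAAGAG
The capitals of one sequence are the reverse complement of the capitals of the other. Col4a5 and Col4a6, also head to head, have start sites 1343 bases apart on chromosome X, and their windows share no base.

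Endothelial cells, which make the basement membrane of vessels, had the highest Col4a1 and Col4a2 of the 10 types in both libraries. Col4a1 stood at 2452 CPM in WT (2359 to 2548) and 2340 in KO (2246 to 2438), and was detected in 95.7% and 95% of the cells. With every cell thinned to 1000 UMIs these shares were 83.1% and 78.9%, against 5.98% and 4.30% of erythroid cells, whose median depths were 2076 and 2505.5 UMIs against 2191 and 2761 in endothelium. Floor plate came next, with 838 CPM in WT (683 to 1017) and 908 in KO (767 to 1068), then head mesenchyme with 715 and 698, whose intervals overlapped those of floor plate. Cells with epithelial markers had 714 in WT and 576 in KO, cardiac muscle 431 and 320, splanchnic mesoderm 330 and 255, and erythroid cells 70.2 and 43.9. Dorsal neural tube had 313 and 210.4, and migrating neural crest, neural tube progenitors and neurons lay between 144 and 188 in both libraries with overlapping intervals.

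Col4a2 was also highest in endothelium, at a lower level, with 899 CPM (843 to 958) in WT and 839 (783 to 898) in KO endothelium. Of the UMIs of the pair, Col4a1 held 74.6% in WT and 74.3% in KO over all cells. The share was 73.2% and 73.6% in endothelium, 74.6% and 73.3% in cardiac muscle and 81.6% (73.7 to 88) and 79.8% (73.2 to 85.4) in floor plate. The lowest share was 55.6% (38.1 to 72.1) in WT neurons and 65.6% (46.8 to 81.4) in KO erythroid cells, on 36 and 32 UMIs of the pair. In KO the highest was 81.8% (69.1 to 90.9) in splanchnic mesoderm. The share varied less between types than the level of either chain. Some single cells departed from it. The WT cell with the most Col4a2 UMIs, an endothelial cell of 3318 UMIs, held 72 Col4a2 and 20 Col4a1 UMIs, and the KO one, also endothelial and of 3977 UMIs, held 44 and 11. The 10 WT cells with at least 10 Col4a2 UMIs held 223 of Col4a2 and 85 of Col4a1, and the 7 such KO cells 122 and 92. Without these cells Col4a1 held 75.5% and 74.9% of the pair.

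Col4a5 and Col4a6 encode chains of a second basement membrane network. Col4a5 was highest in dorsal neural tube in both libraries (20 UMIs, 149 CPM in WT, and 9 UMIs, 65.3 in KO), with wide and overlapping intervals. In cardiac muscle it reached 97.4 in WT (86.6 to 109) and 57.3 in KO (48.8 to 66.9), and in cells with epithelial markers 55.7 and 59.1. Col4a6 had 212 and 171 UMIs in all, Col4a4 40 and 27, and Col4a3, its partner in the kidney, fewer than 50 in both libraries together.

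Col18a1 (chromosome 10) was also highest in endothelium, with 793 CPM in WT (740 to 848) and 692 in KO (641 to 746). It was next in cells with epithelial markers, at 439 and 366, and in floor plate, at 402 and 392, whose intervals overlapped. Col15a1, the other multiplexin, was mostly found in endothelium, where 42 of its 73 WT UMIs and 49 of its 64 KO UMIs lay, at 39.7 and 49.4 CPM. It had 0 UMIs in erythroid cells, where a floor of 3 UMIs stands at 3.15 and 6.27 CPM. Col23a1, a transmembrane collagen, stood at 96.4 (78.6 to 117) and 121 (100.4 to 145) CPM in endothelium, followed by head mesenchyme at 73.4 and 76.9, and at 3.15 and 2.09 in erythroid cells.

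**Figure D2:**
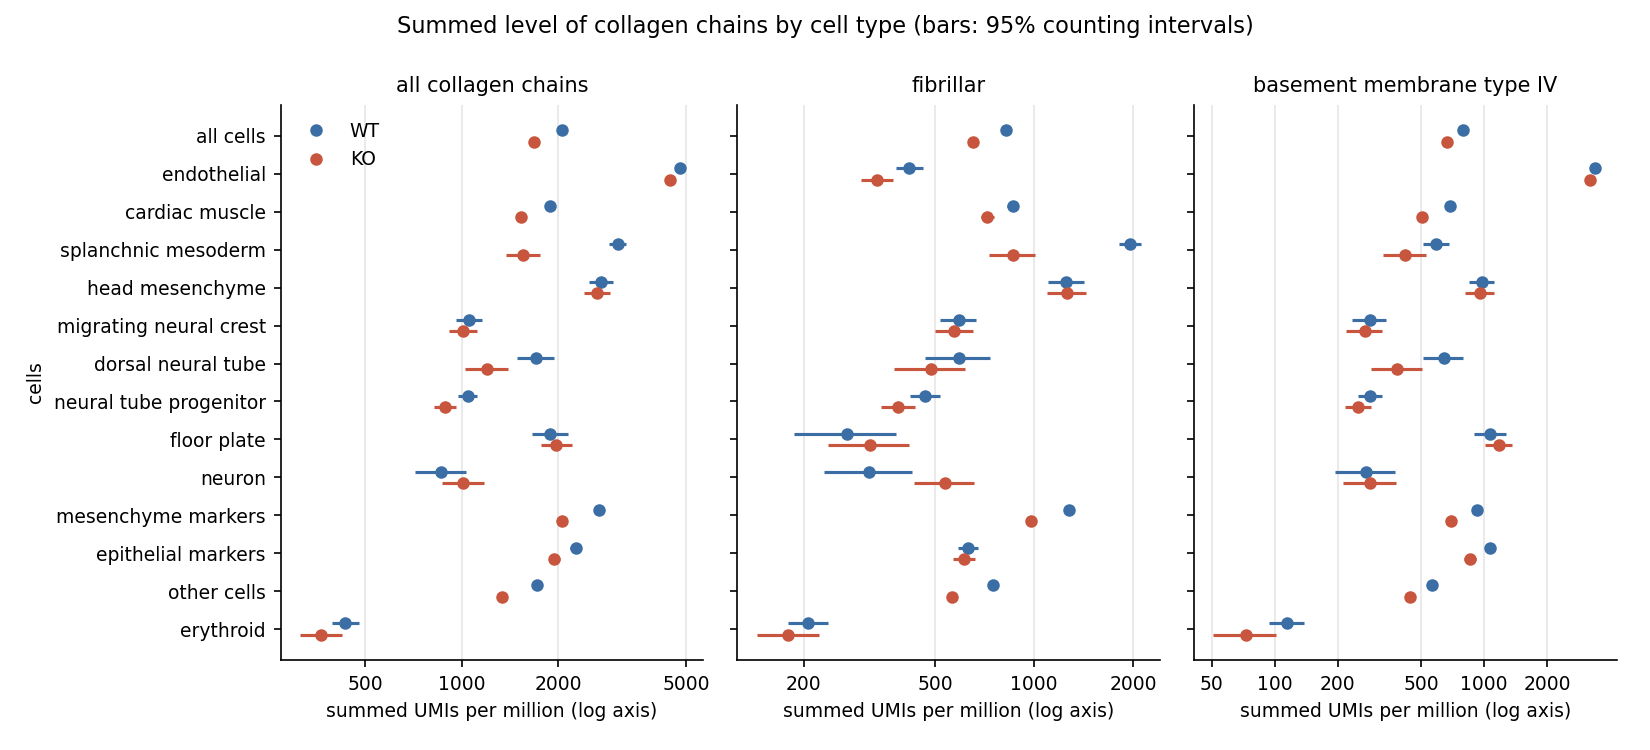
Summed CPM of all 38 chains, of the fibrillar chains and of the type IV chains in each cell type (log axis), with exact Poisson 95% intervals, WT and KO. Endothelium is highest for type IV in both libraries (3379 and 3196). Splanchnic mesoderm shows the widest gap between WT and KO for all chains and for fibrillar chains (1952 and 860). For type IV the gap is widest in dorsal neural tube (642 and 384.5).

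Col2a1 is the fibrillar chain of cartilage collagen. Of the 10 gated types it was highest in cardiac muscle in both libraries, with 360.0 CPM in WT (339 to 382) and 345 in KO (324 to 368). Dorsal neural tube had 179 (115 to 266) and 218 (147 to 311), head mesenchyme 176 and 148, neural tube progenitors 169 and 141 and migrating neural crest 132 and 175, with intervals that overlapped within each library, while endothelium, at 31.2 and 41.4, lay at or below the erythroid level of 40.9 and 46.0. The thinned share of cells with a Col2a1 UMI was 22.5% and 20.6% in cardiac muscle against 3.68% and 4.30% in erythroid cells. Types with under 50 cells in a library were not ranked, but the 7 WT notochord-gated cells held 19 Col2a1 UMIs (1366 CPM) and the 12 otic-gated cells of each library 19 (633 and 664 CPM).

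Col2a1 climbed with the number of cardiac markers detected in a cell. In WT it stood at 107 CPM in cells with 3 markers (371 cells), 159 with 4 to 5 (514), 316 with 6 to 7 (202) and 591 with 8 to 10 (524). In KO the same steps gave 134 (459 cells), 156 (509), 260.2 (130) and 699 (302). Deeper cells show more markers, and the median depth at the lowest and highest step was 1178 and 2473 UMIs in WT and 1321 and 3237.5 in KO. Col4a1 climbed too, from 255 to 547 in WT and from 182 to 488 in KO. Col3a1 went the other way, from 196 to 67.4 in WT and from 127 to 46.5 in KO, and Col1a2 in WT from 167 to 55.3. In KO, Col1a2 stood at 75.2, 118, 107 and 49.7 over the 4 steps, and the intervals of the lowest and highest step overlapped. Col1a1 was lower at the highest step in WT (163 CPM at the lowest and 47.7 at the highest step) but not in KO (48.7 and 80.3). The part of depth in these steps was not tested.

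**Figure D3:**
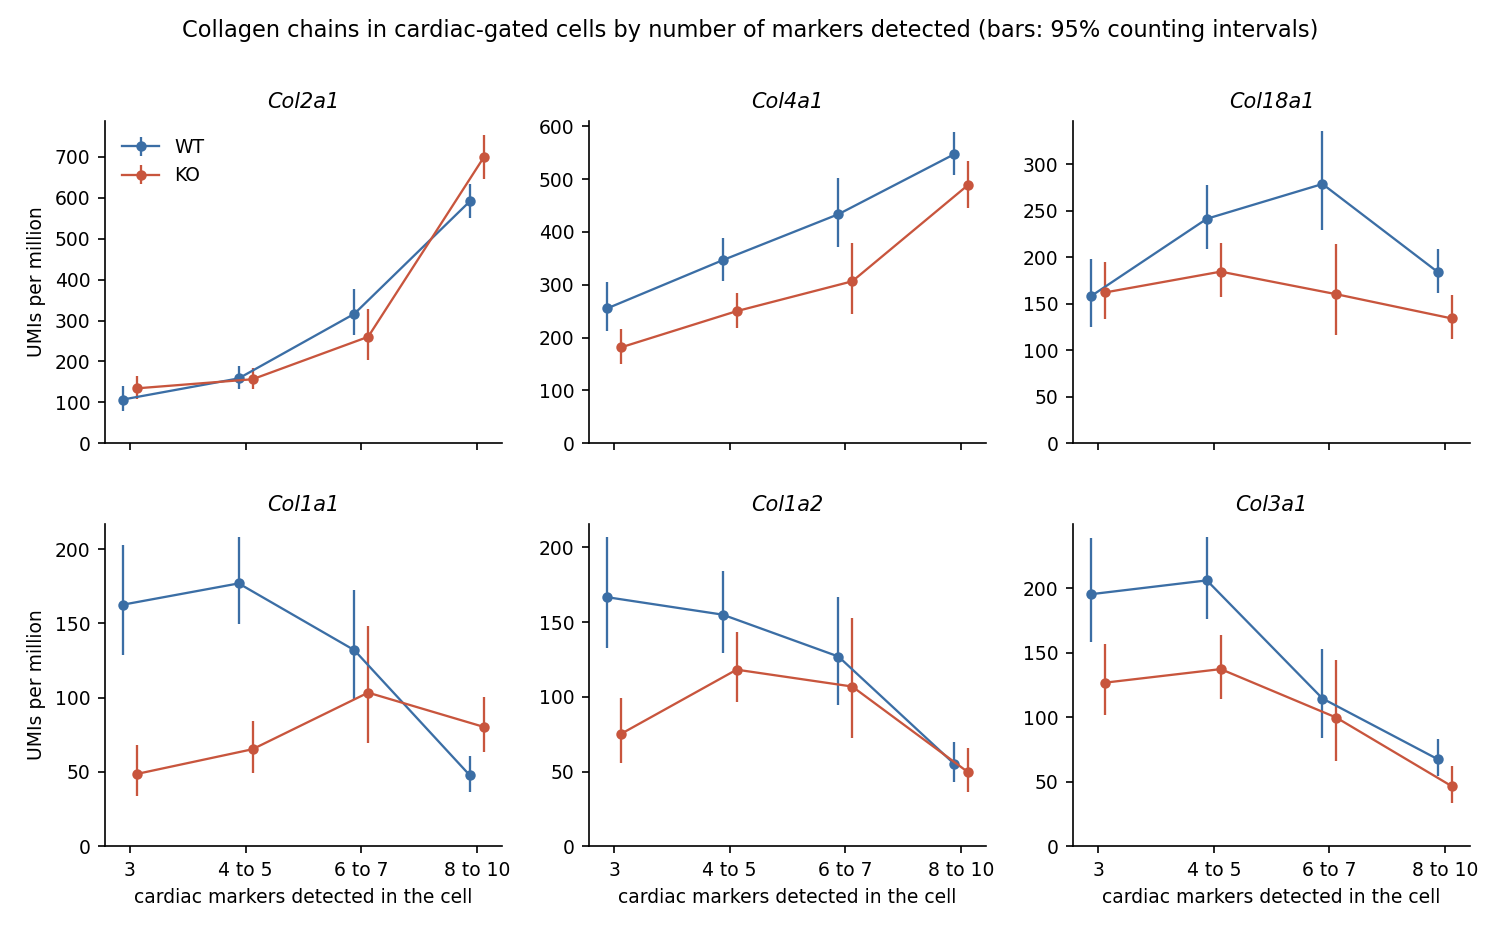
CPM of 6 chains in cardiac-gated cells by the number of the 10 cardiac markers detected (3, 4 to 5, 6 to 7, 8 to 10), with exact Poisson 95% intervals, WT and KO. Col2a1 climbs to 591 and 699 at the highest step, whereas Col3a1 drops to 67.4 and 46.5.

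Col1a1 and Col1a2 encode the chains of type I collagen, which assembles from a pair of the first and a single copy of the second, and Col3a1 the chain of type III, its partner in soft tissue. In WT all 3 were highest in splanchnic mesoderm, the mesoderm around gut and heart, with Col1a1 at 723 CPM (635 to 820), Col1a2 at 473 (402 to 553) and Col3a1 at 438 (370 to 514). Among the gated types head mesenchyme followed with 264, 215 and 357, where the broader set with mesenchyme markers had 269, 253 and 354, and its Col3a1 interval (280 to 449) overlapped that of splanchnic mesoderm. In KO, Col1a1 and Col3a1 were highest in head mesenchyme instead, at 248 (179 to 336) and 414 (323 to 523), against 187 (128 to 262) and 215 (152 to 295) in splanchnic mesoderm, so the intervals of the 2 types overlapped for Col1a1 and not for Col3a1. Col1a2 was highest in splanchnic mesoderm in KO as well, at 221 (157 to 302) on 39 UMIs. KO neurons, with 37 Col1a2 UMIs, came close, and the intervals of the 2 types overlapped. Migrating neural crest had more Col1a2 than Col1a1 UMIs: 66 against 9 in WT and 62 against 9 in KO. Its thinned share of cells with a Col1a1 UMI, 0.606% and 0.741%, was no higher than the 1.38% and 1.08% of erythroid cells. Dorsal neural tube also had few Col1a1 UMIs, 2 against 10 of Col1a2 in WT and 2 against 13 in KO.

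The share of Col1a1 in the type I pair spanned a wider range over the types than that of Col4a1. It was 50.3% (49.0 to 51.5) over all WT cells and 43.1% (41.5 to 44.8) over KO cells. In migrating neural crest it was 12% (5.64 to 21.6) and 12.7% (5.96 to 22.7), in head mesenchyme 55.1% and 60%, in cardiac muscle 50.6% and 45.7%, and in splanchnic mesoderm 60.5% and 45.8%. In endothelium it was 35.1% in WT and 10.2% in KO, on 39 and 6 Col1a1 UMIs. The thinned share of endothelial cells with a Col1a1 UMI, 1.09% and 0.556%, was at or below the 1.38% and 1.08% of erythroid cells, while the level was 36.8 CPM in WT and 6.05 in KO against 18.9 and 10.4 in erythroid cells, so this share of the pair rests on background or on few cells.

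**Figure D4:**
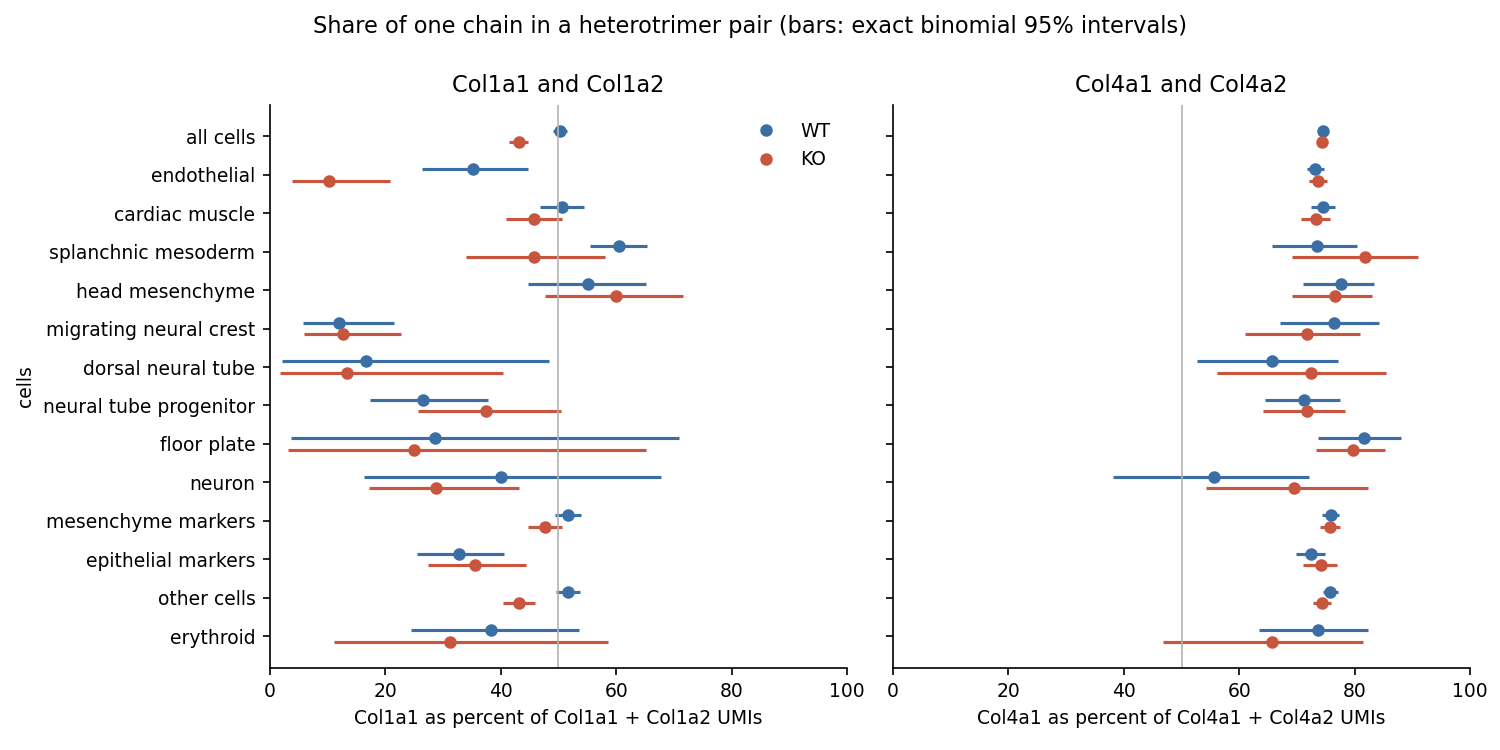
Percent of Col1a1 in the Col1a1 and Col1a2 UMIs (left) and of Col4a1 in the Col4a1 and Col4a2 UMIs (right) by cell type, with exact binomial 95% intervals, WT and KO. Among the 10 gated types, Col1a1 runs from 12% in migrating neural crest (9 UMIs) to 60.5% in splanchnic mesoderm in WT. In KO it runs from 10.2% in endothelium (6 UMIs, no more than the erythroid level) to 60% in head mesenchyme. Col4a1 runs from 55.6% in neurons (36 UMIs of the pair) to 81.6% in floor plate in WT. In KO it runs from 65.6% in erythroid cells (32 UMIs of the pair) to 81.8% in splanchnic mesoderm.

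The promoters of Col1a2 and Col3a1 are shown because both chains were highest in splanchnic mesoderm in WT and their windows differ in base composition. Capitals mark matches, on either strand, to the TATA box TATAAA, the CAAT box CCAAT or the GC box GGGCGG, in RefSeq windows of GRCm38.p6: Col1a2 at chr6:4505368-4505667 and Col3a1 at chr1:45311288-45311587, both plus strand. The table used here holds no Col1a1 window.
Col1a2: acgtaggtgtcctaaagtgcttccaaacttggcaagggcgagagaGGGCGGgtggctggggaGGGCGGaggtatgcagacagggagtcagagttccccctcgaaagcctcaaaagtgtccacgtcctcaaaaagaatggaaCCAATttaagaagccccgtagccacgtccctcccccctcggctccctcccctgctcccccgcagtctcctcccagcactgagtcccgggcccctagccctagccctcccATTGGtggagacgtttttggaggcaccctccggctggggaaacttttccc
Col3a1: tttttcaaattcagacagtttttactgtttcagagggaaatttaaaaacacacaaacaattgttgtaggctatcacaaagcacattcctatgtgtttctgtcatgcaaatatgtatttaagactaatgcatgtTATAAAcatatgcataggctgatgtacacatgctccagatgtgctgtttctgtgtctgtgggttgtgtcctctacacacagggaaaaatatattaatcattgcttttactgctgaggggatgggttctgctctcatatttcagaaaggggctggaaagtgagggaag
The Col1a2 window, 61% G and C, holds GGGCGG and CCAAT matches, and that of Col3a1, 37.7% G and C, a TATAAA match. Over the 32 windows found for 29 of the 38 chains, GGGCGG matched in 20 (62.5%, against 35.7% of all 32851 promoters), CCAAT in 12 (37.5% against 37.4%) and TATAAA in 4 (12.5% against 13.6%). These are letter matches, not binding sites.

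Col1a1 was also the most unevenly spread of the 15 chains with at least 1000 UMIs. The 1% of cells with most of it held 45.5% of its UMIs in WT and 40.9% in KO, against 12.1% and 15.0% for Col4a1. There were 99 WT cells with at least 5 Col1a1 UMIs (0.828% of cells, 0.673 to 1.01) and 38 KO cells (0.389%, 0.276 to 0.534), and they held 42.8% and 27.5% of all Col1a1 UMIs. Of the 99, 38 fell outside the gates and broader sets, 32 among cells with mesenchyme markers, 13 in the cardiac and 11 in the splanchnic gate. Of the 38, these classes held 14, 12, 5 and 2. These cells were rich in the partner chains as well: Col1a2 stood at 2242 CPM in WT and 1384 in KO, against 119 and 97.7 in the other cells, and Col3a1 at 1572 and 796 against 181 and 145. They were low in Col2a1 in WT (60.1 CPM) and held 136 in KO.

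Types V, XI and XXVII are minor fibrillar collagens that join type I or II fibrils. Col5a1 had 1048 and 850 UMIs and Col5a2 643 and 456. Col5a1 held 62.0% and 65.1% of the pair over all cells and 33.0% and 34.7% in endothelium, where Col5a2 led. It held 95.3% and 79.1% in migrating neural crest, on 2 and 9 Col5a2 UMIs. The lead of Col5a1 was not particular to crest, with 65.9% and 78.05% in cardiac muscle. Col11a1 stood at 39.6 and 38.4 CPM, with 63.6 and 59.1 in head mesenchyme and 13.6 and 8.36 in erythroid cells, and Col27a1 at 28.7 and 22.8. Cells with mesenchyme markers had 47.6 and 30.6 CPM of Col27a1.

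The remaining families were scarcer. Col12a1, Col22a1, Col25a1, Col7a1, Col14a1, Col9a3, Col16a1 and Col6a3 had 37 to 128 UMIs per library, apart from Col6a3 with 20 in KO. Col9a1, a fibril-associated chain of type IX collagen, and Col26a1 were highest in head mesenchyme in both libraries, at 93.0 and 35.5 and at 113 and 65.1 CPM. The KO value of Col9a1 rests on 6 UMIs. Thinned, the share of head mesenchyme cells was 11.6% in WT and 1.41% in KO for each chain, and the KO share lay below the 2.75% of KO cardiac muscle. Col9a2 and Col13a1 were highest in neurons, on 4 to 7 UMIs per library. Type VI chains, which form beaded filaments, summed to 17.9 and 14.2 CPM, Col6a1 holding 51.6% and 44.8% of its pair with Col6a2. Across the 26 chains with at least 100 UMIs, 14 (53.8%) had the same highest gated type in WT and KO, against 33.7% of the 11744 genes with as many UMIs.

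Over the 20 points given by 10 types and 2 libraries, the log levels of Col4a1 and Col4a2 had a Pearson r of 0.96, Col4a1 and Col18a1 of 0.84, Col1a1 and Col3a1 of 0.82, and Col1a1 and Col1a2 of 0.81. The points share libraries and differ in depth, so these values describe the levels only. Outside the family, the genes most like Col1a1 were Tbx18 (r = 0.93), Dlk1 (0.93), Snai2 (0.92), Pdgfra (0.87) and Bmp4 (0.84), most like Col4a1 were Tax1bp3 (0.88), Selenop (0.87), Anxa2 (0.87), Rrbp1 (0.87) and Laptm4b (0.86), and most like Col2a1 were Psrc1 (0.74), Slitrk5 (0.71), Ppp2r3a (0.71), Ppa2 (0.71) and Dclk1 (0.70).

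Between genotypes, the 38 chains together were lower in KO, by a log2 ratio of KO to WT of -0.29 (-0.31 to -0.27). The median of the 31 chains with at least 50 UMIs was -0.25, against -0.06 over all 12909 genes with as many UMIs. Of the 31, 28 lay below 0, as did 61.1% of all genes, and 15 had an interval wholly below 0, as did 25.8% of all genes; Col23a1, Col12a1 and Col25a1 lay above 0, each with an interval that spanned 0. At a threshold of 1.5-fold, 4 chains were lower in KO, where 3.87% of all genes were, and 0 were higher, where 1.03% of all genes were. Whether the libraries differed in the mix of cells or in RNA per cell of a type cannot be told apart in such pooled sums. With the KO types weighted as in WT the ratio was -0.31, a weighting in which the 5730 WT and 4710 KO cells outside all sets count as 1 type.

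Col1a1 was the one abundant chain past the threshold, with 2956 UMIs in WT and 1510 in KO (142 and 79.7 CPM, log2 -0.84, -0.93 to -0.75). Its partners were less far apart, Col1a2 at -0.42 (-0.50 to -0.34) and Col3a1 at -0.40 (-0.47 to -0.33). The other 3 were scarce: Col6a3 had 56 and 20 UMIs (-1.35, -2.17 to -0.59), Col9a2 223 and 131 (-0.63, -0.96 to -0.32) and Col11a2 51 and 26 (-0.84). Col2a1 differed least among the abundant chains, at -0.02 (-0.09 to 0.05) with Col11a1 next, at -0.04 (-0.19 to 0.10). Col4a1 stood at -0.25 (-0.29 to -0.21), Col4a2 at -0.24, Col18a1 at -0.30 and Col4a5 at -0.55 (-0.69 to -0.41). By family, fibrillar chains summed to 819 and 650.0 CPM (-0.33, -0.37 to -0.30), type IV to 796 and 662 (-0.27, -0.30 to -0.23), multiplexins to 266 and 217 (-0.30) and transmembrane collagens to 44.3 and 46.7 (0.08, -0.06 to 0.21).

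**Figure D5:**
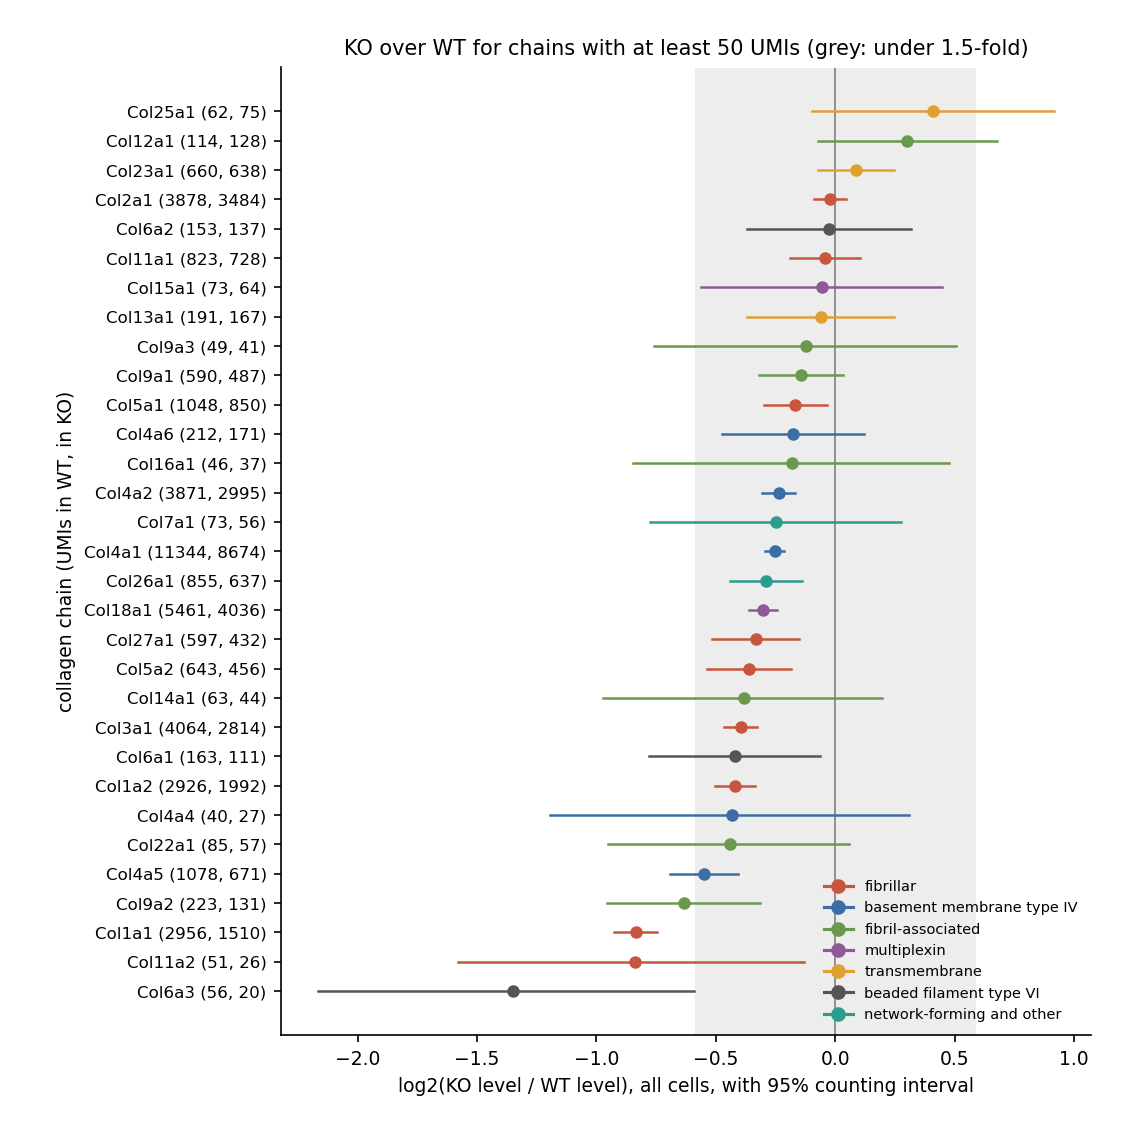
Log2 ratio of KO to WT level over all cells for the 31 chains with at least 50 UMIs, with exact conditional 95% intervals, grey under 1.5-fold. Col6a3, Col11a2, Col1a1 and Col9a2 lie past 1.5-fold on the low side, and most other chains sit between 0 and that threshold.

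Splanchnic mesoderm showed the widest difference of the gated types. All chains summed to 3062 CPM in WT and 1556 in KO (-0.98, -1.17 to -0.78), and 5 of the 6 chains with at least 50 UMIs there were past 1.5-fold lower, where 7.60% of all genes were, against 0 higher, where 6.09% were. Col1a1 had 243 UMIs in WT and 33 in KO (723 and 187 CPM, -1.95, -2.53 to -1.43), and the ratio was -2.87 with a gate of at least 4 markers. Col18a1 had 115 and 25 (342 and 141 CPM, -1.27, -1.96 to -0.64). Col1a2 had 159 and 39 (473 and 221 CPM, -1.10, -1.65 to -0.59), Col3a1 147 and 38 (438 and 215 CPM, -1.02, -1.58 to -0.50) and Col4a2 40 and 10 (-1.07, -2.24 to -0.05). The sixth, Col4a1, gave 330 and 255 CPM, with an interval that spanned 0. Col1a1 was seen in 49 of 168 WT cells and 12 of 73 KO cells. The highest WT cell held 51 Col1a1 UMIs and the highest KO cell 9, and without them the levels were 575 and 138 CPM (-2.06, -2.74 to -1.44). At 1000 UMIs per cell, 19.4% of WT (13.7 to 26.3) and 8.22% of KO cells (3.08 to 17) had a Col1a1 UMI, with 1.38% and 1.08% of erythroid cells; unthinned, the shares were 29.2% and 16.4%, with 3.63% and 2.69% of erythroid cells, at median depths of 1932 and 2341 UMIs in splanchnic mesoderm.

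The cells in this gate were not wholly alike between libraries. Its 11 markers summed to 3092 CPM in WT and 2897 in KO and none was at 0, with Gata6 at 890 and 786, Gata4 at 551 and 481 and Barx1 at 271 and 300, but Hand1 stood at 173 and 73.6 (-1.23, -2.22 to -0.35) and Gata5 at 396 and 554. Dlk1 stood at 571 and 260.3 CPM (-1.14, -1.63 to -0.66) and Pdgfra at 363 and 226 (-0.68, -1.24 to -0.16); both were picked for likeness to Col1a1 over points that include this gate, so they are no separate evidence. Of the cells, 52 in WT and 20 in KO passed on exactly 3 markers. Free haemoglobin Hba-x was at 1241 and 526 CPM in the gate. The part of these differences in the collagen values was not tested.

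In cardiac muscle the chains summed to 1890 and 1530 CPM (-0.30, -0.36 to -0.25). The gate itself differed between the libraries: its 10 markers, none at 0, summed to 17250 CPM in WT and 13890 in KO, the held-out Actc1 stood at 4050 and 2519 and Nkx2-5 at 148 and 93.8, and 371 of 1611 and 459 of 1400 cells passed on exactly 3 markers. Of 20 chains tested, 4 were past 1.5-fold lower (5.67% of all genes), namely Col5a2, Col4a5, Col9a2 and Col1a1, and 1 was higher (1.78% of all genes). Col5a2 had 94 UMIs in WT and 45 in KO (-0.95, -1.49 to -0.42), Col4a5 295 and 160 (-0.77, -1.05 to -0.48) and Col1a1 340 and 196 (-0.68, -0.94 to -0.42), while the interval of Col9a2 spanned 0. Col12a1, the chain of a fibril-associated collagen, was the one on the high side, with 24 and 47 UMIs (7.93 and 16.8 CPM, 1.09, 0.35 to 1.86). The sum, Col1a1 and Col4a5 moved with the number of markers required, and the cause was not tested. With at least 4 markers the sum gave -0.23. Cells with at least 6 were deeper, with median depths of 2317 (WT) and 2941.5 UMIs (KO) against 1753 and 1672.5 in the whole gate. In the 726 WT and 432 KO cells with at least 6 cardiac markers the sum was 2055 and 1956 (-0.07, -0.15 to 0.00), Col1a1 turned to 67.4 and 85.6 (0.35, -0.05 to 0.74), Col4a5 to -0.32 (-0.66 to 0.02), and Col12a1 stayed higher (20 and 36 UMIs, 1.34, 0.51 to 2.2). In these cells 1 of 12 chains was past 1.5-fold higher (2.21% of all genes) and 1, Col5a2, lower (6.01%) with an interval that spanned 0.

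Endothelium, where collagen was most abundant, differed little in the sum: the chains gave 4809 and 4461 CPM (-0.11, -0.17 to -0.05), and of 12 tested, 0 were past 1.5-fold higher (2.85% of all genes) and 0 lower (4.88%). Its fibrillar chains, a small part of that sum, differed more, at 418.5 and 334 CPM (-0.33, -0.54 to -0.12). Migrating neural crest, where Cre is active, gave 1054 and 1007 (-0.07, -0.27 to 0.13), with 0 of 5 chains higher (5.08% of all genes) and 0 lower (5.23%). Of the 5, 4 lay below 0, and every interval spanned 0: Col1a2 was at 159 and 157 CPM (-0.02, -0.54 to 0.51), Col5a1 at 98.7 and 86.2 (-0.20), Col4a1 at 188 and 155 (-0.28), Col18a1 at 98.7 and 68.5 (-0.53, -1.28 to 0.21) and Col2a1 at 132 and 175 (0.40, -0.13 to 0.94), so a change within these intervals could not have been seen at this depth. The thinned share of crest cells with a Col3a1 UMI was 10.9% (6.59 to 16.7) in WT and 2.22% (0.461 to 6.36) in KO, against 8.51% (6.06 to 11.5) and 1.08% (0.131 to 3.83) of erythroid cells, whose intervals overlapped those of crest in each library. Dorsal neural tube, from which crest leaves, gave 1701 and 1197 (-0.51, -0.81 to -0.21), but -0.13 when thinned to 1000 UMIs per cell and -0.24 without the deepest 5% of cells, with 0 of 3 chains higher (7.11% of all genes) and 1, Col18a1, lower (5.85%) with an interval that spanned 0.

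Head mesenchyme gave 2717 and 2644 CPM (-0.04), with 0 of 7 chains higher (6.11% of all genes) and 0 lower (6.68%), and its Col1a1 was 264 and 248 (-0.09, -0.71 to 0.52). The difference between the gates in this ratio was not tested. Neural tube progenitors gave 1043 and 887 (-0.23), with 0 of 7 chains higher (3.28% of all genes) and 0 lower (5.02%), and floor plate 1889 and 1972 (0.06), with 0 of 3 higher (6.68%) and 0 lower (4.97%). Neurons gave 863 and 1010 (0.23), which turned to 836 and 804 (-0.06, -0.43 to 0.32) without the highest cell of each library and to -0.06 with at least 4 markers. Their 1 testable chain was neither higher (7.37% of all genes) nor lower (5.49%). Fibrillar chains in neurons stood at 316 and 537, with 31 UMIs in a single KO cell, and at 293 and 361 (0.30, -0.30 to 0.91) without those cells. Neuronal Col1a2, with under 50 UMIs in all, had 9 UMIs in 7 of 78 WT cells and 37 in 19 of 78 KO cells (64.7 and 216 CPM, 1.74, 0.66 to 2.98) and 43.8 and 178 CPM (2.02, 0.73 to 3.58) without the highest cells, while thinned to 1000 UMIs 8% and 11.8% of neurons had a Col1a2 UMI, with overlapping intervals. Erythroid cells had 0 of 4 chains higher (3.45% of all genes) and 1 lower (7.90%), Col4a1, with an interval that spanned 0.

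The cells outside the 10 gates were split by broader markers. Those with mesenchyme markers (1942 WT and 1716 KO cells) gave 2674 and 2055 CPM (-0.38). Of 21 chains, 2 were past 1.5-fold lower (3.59% of all genes), Col1a1 with 1001 and 545 UMIs (-0.81, -0.97 to -0.66) and Col27a1 with 177 and 109 (-0.64, -0.99 to -0.28), and 1 was higher (1.48%), Col12a1, with an interval that spanned 0. Col2a1 did not follow them, at 189 and 198 CPM (0.07, -0.09 to 0.22). Those with epithelial markers (595 and 452 cells) gave 2263 and 1944 (-0.22), with 0 of 12 chains higher (3.18%) and 1 lower (5.08%), Col9a2, whose interval spanned 0, and here Col1a1 was 40.8 and 41.5. In the other 5730 and 4710 cells, which gave 1720 and 1334 (-0.37), 4 of 22 chains were lower (4.60%), Col4a5, Col9a2, Col1a1 (1126 and 563 UMIs, -0.89) and Col12a1, which had 46 and 28 UMIs, an interval that spanned 0 (-0.61, -1.34 to 0.10) and the opposite direction to cardiac muscle, and 1 was higher (0.943%), Col25a1, with an interval that spanned 0.

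The genes that fold, modify and process collagen had list medians nearer to that of all genes than the chains had. Of 21 folding and modification genes 2 were past 1.5-fold lower in KO (3.87% of all genes) and 0 higher (1.03%): P4ha3, a subunit of prolyl 4-hydroxylase, with 63 and 29 UMIs (-0.98), and Creb3l1, a transcription factor of the secretory pathway, with 229 and 115 (-0.86). The collagen chaperone Serpinh1 stood at 1371 CPM in WT and 1449 in KO (0.08), P4hb at 270 and 316 (0.23), P4ha1 at 69.5 and 76.0 (0.13), Ppib at 335 and 299 (-0.17), the lysyl hydroxylases Plod2 at 71.8 and 64.6 and Plod3 at 31.8 and 25.1, Colgalt1 at 96.0 and 100.2, P3h4 at 34.7 and 34.5 and the export receptor Mia3 at 66.5 and 62.8. Of 9 tested processing and cross-linking genes, 6 receptors and 9 genes of collagen breakdown, 0 were past 1.5-fold in either direction, against 3.87% of all genes lower and 1.03% higher. Their abundant members were the cross-linkers Loxl2 (88.7 and 89.6) and Pxdn (97.3 and 87.5), the receptors Itgb1 (166 and 181) and Ddr1 (43.3 and 31.8), the proteases Mmp14 (56.4 and 42.1), Mmp2 (39.9 and 34.8) and Mmp15 (31.3 and 30.8), the uptake receptor Mrc2 (30.3 and 27.7), and the inhibitors Timp2 (35.2 and 37.5) and Timp3 (48.5 and 59.9). The medians of the 4 lists were -0.08, -0.15, 0.06 and -0.13, against -0.25 for the chains and -0.06 for all genes.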

How the data were processed

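The authors counted UMIs with Cell Ranger (the submitters' processing notes name version 1.3.1, Scanpy and mm10, while the study's methods name a human genome joined to ZsGreen1; the deposited symbols are those of mouse). UMIs of mitochondrial and ribosomal genes had been removed, and 0 such genes are in the tables, so totals and CPM exclude them and the depths recovered here are below those of the raw libraries. Each deposited value is a score, the square root of a UMI count scaled by the authors to 1641 UMIs per cell. UMIs were recovered by squaring each value and dividing by the smallest nonzero square of its cell, and 100% of nonzero values came out whole within 0.01. All deposited cells were kept; they held 533 to 4464 (WT) and 828 to 4588 UMIs (KO), inside the study's limits of 200 and 6000. Cells entered a gate when at least 3 of its markers had a UMI and at least 2 more than any other list; 10 of 19 gates had 50 cells in both libraries. The mesenchyme and epithelial sets (at least 2 of 7 and of 4 markers among ungated cells) and the gate of 6 cardiac markers were chosen after seeing the data. The members and lists were chosen with earlier results of these data known.

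UMIs were summed per library and type and divided by the total, times 1000000. Levels have exact Poisson, ratios exact conditional and shares exact binomial (Clopper-Pearson) 95% intervals. A floor is 3 UMIs. Features with at least 50 UMIs over both libraries were compared at 1.5-fold, by size alone. Since a few cells can hold many UMIs of a gene, the intervals are too narrow for such genes. Levels are given in full for chains with at least 1000 UMIs, differences within a type for chains past 1.5-fold whose interval leaves out 0, and pathway genes with at least 1000 UMIs or past 1.5-fold; the 5 genes most like Col1a1, Col2a1 and Col4a1 were ranked by Pearson r of log2(level + 10) among genes with at least 500 UMIs. Other values beside these are descriptions chosen after seeing the data. Chain coordinates are GENCODE (mm10) and promoter windows RefSeq (GRCm38.p6). Python 3.11.15, numpy 2.4.6, scipy 1.17.1, pandas 2.3.3 and matplotlib 3.10.9 were used. The ratios were run on counts simulated with counting error only. That run held no spread between cells or between libraries, so it cannot check the intervals against either.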

Additional observations from a re-analysis of the deposited data

How the results depend on the processing

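No paired analysis was possible because each genotype is 1 library. Of 114 alternative values of the sums and counts, 93 stayed within the counting interval or, for counts, within 1.5-fold, and 21 moved past it; the cause was not tested. Over all cells, all chains gave log2 -0.23 with a trimmed mean of ratios and -0.22 with a median of ratios (shifts of -0.06 and -0.07 in all genes), -0.33 as a mean over cells, -0.38 thinned to 1000 UMIs and -0.31 with WT cell type shares. Fibrillar chains gave -0.27, -0.27, -0.39 thinned and -0.38 with the erythroid level taken off. Type IV chains gave -0.21, -0.20, -0.33 as a mean over cells, -0.42 thinned and -0.21 with the erythroid level taken off. Cardiac muscle gave -0.24 with the trimmed mean, -0.39 thinned, -0.23 with 4 markers and -0.071 with 6, and dorsal neural tube -0.13 thinned. The chains lower in KO numbered 2 at 200 UMIs and 1 at 2-fold, and those higher 0 under every setting run. Of 275 values of single chains and pairs, 259 stayed, 15 moved and 1 with an interval that left out 0 changed sign, Col1a1 in cardiac muscle, 0.35 with 6 markers and -0.41 with 4. Splanchnic Col1a1 gave -2.87 with 4 markers, and Col23a1 over all cells, whose interval spans 0, changed sign to -0.10 thinned. Thinning left out 1361 WT and 125 KO cells. The gates with 6 markers, WT type shares and the erythroid correction were chosen after seeing the data. Types with under 100 cells, and chains under 50 UMIs, carry wide intervals.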

Other observations

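Gates with under 50 cells in a library were left out of the comparisons. In dermomyotome-gated cells (20 in WT, 11 in KO), Col4a1 stood at 1242 and 978 CPM. In sclerotome-gated cells (15 and 11), Col3a1 was at 784 and 533. In surface ectoderm (9 and 11), Col18a1 was at 605 and 807. In arch mesenchymal neural crest (19 and 29), Col1a1 had 26 UMIs in WT, 22 of them in 1 cell, and 1 in KO, while Col1a2 was at 273 and 267 CPM.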
